A study of Rattus norvegicus with 6 samples.

Results

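The genes of the proteasome were followed in skeletal muscle of newborn rats of lower and of average birth weight. A gene was counted as a member where the RefSeq accession of its array row mapped to a symbol beginning with *Psma*, *Psmb*, *Psmc*, *Psmd*, *Psme* or *Psmf*, and the interferon-inducible subunits *Psmb8*, *Psmb9* and *Psmb10* were left out. This rule uses names and no measured values. It gave 30 genes of the 9627 named genes on the array, each with a single row, so that no averaging was needed for them. Of the 30, 28 encode core subunits, subunits of the regulatory particle, chaperones that assemble it, or activators. The other 2, *Psmc3ip* and *Psme3ip1*, carry the prefix because their products bind a subunit, and they are described apart. Of the 41 proteasome genes sought, 13 had no matched row and were not analysed here: *Psma3*, *Psma8*, *Psmb5*, *Psmb11*, *Psmc6*, *Psmd5*, *Psmd7*, *Psmd8*, *Psmd11*, *Psmd13*, *Psmd14*, *Psme4* and *Psmf1*. The alpha and beta rings are each represented by 6 of 8 genes sought, and the lid by 3 of 8.

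The proteasome degrades proteins that have been tagged with ubiquitin. Its barrel-shaped core is built of alpha rings, which form the gate, and beta rings, some of whose subunits cut the substrate. A regulatory particle caps the barrel, with a base of ATPases that unfold the substrate and a lid that takes part in removing the ubiquitin chain. In skeletal muscle this system carries much of the breakdown of contractile proteins during wasting, and interferon exchanges the catalytic beta subunits for the immunoproteasome subunits.

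The 3 LBW and 3 ABW pups were 1-day-old male Wistar rats born without an induced growth restriction, to mothers mated in the same way. The LBW pups had birth weights in percentiles 5 to 25. The ABW pups, titled new born controls, are placed in percentiles 50 to 75 by the protocol and in percentiles 25 to 75 by the sample labels. Each pup's muscle (soleus and gastrocnemius together) gave 1 single-colour array, whose signal is a log2 brightness. Whether pups shared a litter or a mother is not given in the sources used here.

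Signals of the 26419 rows ran from 4.58 to 15.49 and the medians of the arrays from 8.70 to 8.76. No pair of arrays correlated below 0.984 across rows. Markers of skeletal muscle with a row (7 of 12 sought, among them *Ckm* and *Acta1*) had mean levels between 14.40 and 14.54 in all 6 pups. Markers of bone (9 of 11) had mean levels between 8.95 and 12.30 in LBW and between 8.20 and 8.55 in ABW pups, with LBW 3 the highest and LBW 2 the lowest of the LBW pups. Markers of neutrophil precursors (5 of 10) had mean levels between 9.35 and 10.34 in LBW and between 8.40 and 8.63 in ABW pups. They did not move together. *Mmp8*, *S100a8* and *S100a9* were higher in LBW pups by 3.03, 2.05 and 2.19, whereas *Prtn3* (-0.07) and *Lcn2* (0.12) overlapped between the groups. The part of these other cells in the values below was not tested, and in whole tissue fewer cells of a type cannot be told apart from less RNA per cell.

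Several transcription factors are known to raise proteasome genes together. NRF1, which does so when the proteasome is inhibited, and its relative NRF2 bind the antioxidant response element, and the NF-Y factors bind the CCAAT box. The promoters of the members were searched for the core of the element, TGACNNNGC, and for the letters CCAAT. Both strands of the 250 bases before the gene start were read from RefSeq (GRCr8), where 27 of the 30 members had a promoter and *Psma7*, *Psmd6* and *Psmd12* had none. The CCAAT letters were present in 16 of the 27 (59.3%), compared to 34.0% of all 33469 promoters of this length. The element core was present in 4 (14.8%), compared to 10.1% of all promoters. The 4 promoters with the element core are shown for the 180 bases before the start, because the levels of these factors and of their possible targets are set side by side further on. Matches to the element core are in capitals, and each is printed along its gene's own strand.
*Psmb2*, chr5:144254878-144255057, + strand: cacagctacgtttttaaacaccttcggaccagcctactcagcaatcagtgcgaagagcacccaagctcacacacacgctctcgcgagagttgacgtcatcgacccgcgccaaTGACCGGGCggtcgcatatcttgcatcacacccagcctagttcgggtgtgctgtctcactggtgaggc
*Psmd1*, chr9:94157791-94157970, + strand: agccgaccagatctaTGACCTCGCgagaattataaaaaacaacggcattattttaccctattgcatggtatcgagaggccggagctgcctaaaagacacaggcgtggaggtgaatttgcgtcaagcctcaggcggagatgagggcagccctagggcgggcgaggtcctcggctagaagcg
*Psmb6*, chr10:55737708-55737887, + strand: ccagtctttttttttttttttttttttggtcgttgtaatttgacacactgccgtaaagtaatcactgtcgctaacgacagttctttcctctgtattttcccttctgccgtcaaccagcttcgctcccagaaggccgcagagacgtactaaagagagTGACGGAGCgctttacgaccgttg
*Psmd9*, chr12:39018265-39018444, - strand: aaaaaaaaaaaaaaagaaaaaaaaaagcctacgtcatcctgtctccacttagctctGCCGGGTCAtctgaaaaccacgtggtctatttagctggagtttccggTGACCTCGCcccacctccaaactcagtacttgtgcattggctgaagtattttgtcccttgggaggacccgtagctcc

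The proteasome genes differed little between the groups. None of the 30 members had an unadjusted p under 0.05 by limma, compared to 12.4% of all 26299 features tested and 10.1% of the 8177 features whose mean signal lay within the range of the members. With the further criterion of the study's methods, a change of 1.5-fold or more either way, the members called again numbered 0, against 4.27% of all features. After Benjamini-Hochberg adjustment over all features 0 members passed, as did 0 features (0.0%), and the smallest adjusted p among the members was 0.524 by limma. In none of the 30 genes did the 3 LBW values lie all on one side of the 3 ABW values, which was the case in 17.4% of all features. The mean was higher in LBW pups in 13 of the 30 (all features, 44.4%), and the median LBW minus ABW difference was -0.007 over the members and -0.023 over all features on the log2 scale.

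How large a difference these arrays leave possible is given by the 95% interval of each difference. All 30 intervals held 0, and all 30 lay within a fold change of 1.5 in either direction. Intervals within 1.5-fold were found for 66.6% of all features and for 80.8% of those in the range of the members' signal. The widest bounds were 0.698-fold (*Psmd10*) and 1.45-fold (*Psmd9*). For the 23 subunits of the core, base and lid they were 0.765-fold and 1.31-fold. The members repeated closely between pups, with a median SD within groups of 0.116 on the log2 scale, compared to 0.164 over all features and 0.137 in the range of the members' signal. Every member lay above the median of every array. The table gives neither a saturation nor a background call, so that a narrowing of differences at bright signals was not tested. For 14 of the members the RefSeq table also lists a named pseudogene, and whether the probes tell it apart from the gene is unknown here.

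**Figure D1:**
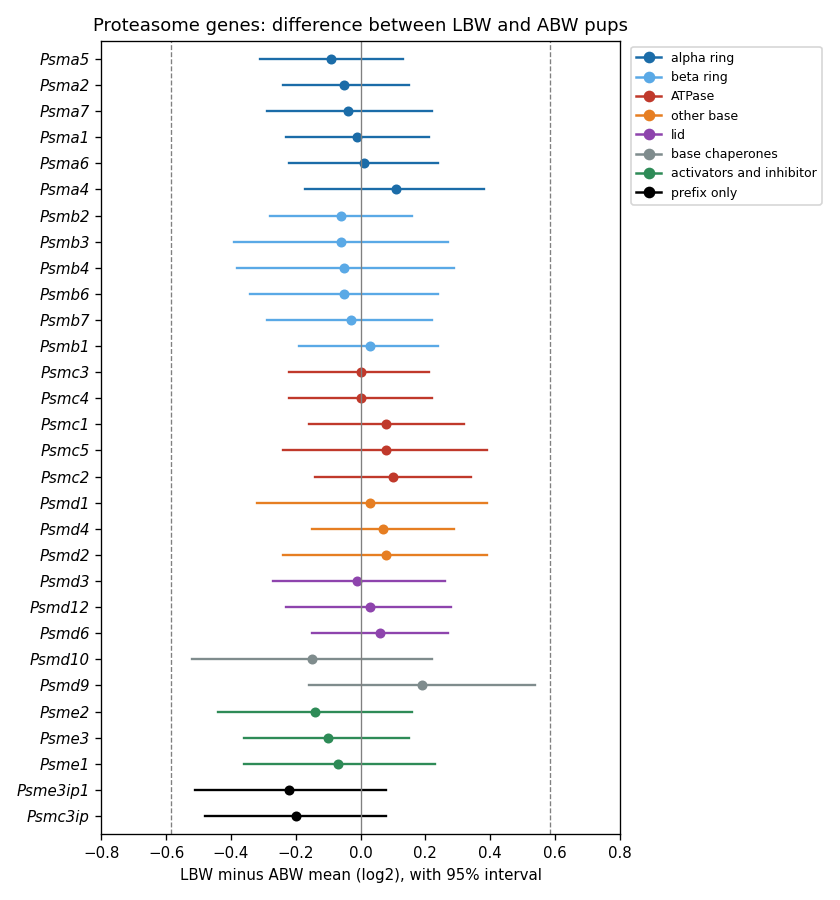
Difference between the LBW and ABW means for each of the 30 members on the log2 scale, with the 95% interval from limma (points and lines, coloured by class). The solid line marks 0 and the dashed lines a fold change of 1.5. All 30 intervals cross the solid line and none reaches a dashed line.

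The alpha ring was represented by 6 genes. *Psma4* had the largest positive difference, with 13.05, 12.97 and 12.71 in LBW 1, 2 and 3 and 12.81, 12.87 and 12.73 in ABW 1, 2 and 3. LBW 1 and LBW 2 lay above the ABW pups and LBW 3 below them, and the difference was 0.11 (SE 0.11, adjusted p = 0.742 by limma). *Psma5* had the largest negative difference. It was at 13.56, 13.74 and 13.64 in the LBW and at 13.70, 13.83 and 13.70 in the ABW pups, a difference of -0.09 (SE 0.09, adjusted p = 0.721 by limma). The groups overlapped at LBW 2. The other 4, *Psma1*, *Psma2*, *Psma6* and *Psma7*, had differences between -0.05 and 0.01.

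Of the beta subunits, *Psmb6* and *Psmb7* belong to those that cut the substrate. *Psmb6* was at 13.47, 13.50 and 13.14 in the LBW and at 13.47, 13.46 and 13.33 in the ABW pups (difference -0.05, 95% interval -0.34 to 0.24, adjusted p = 0.901 by limma). LBW 3 was the lowest pup, and LBW 1 and LBW 2 lay at or just above the ABW values. *Psmb7* was at 13.44, 13.60 and 13.41 compared to 13.66, 13.42 and 13.47, a difference of -0.03 (95% interval -0.29 to 0.22, adjusted p = 0.920 by limma). LBW 1 and LBW 2 lay among the ABW values and LBW 3 just below them. The non-catalytic *Psmb2* was the lowest of the class (-0.06, SE 0.09) and *Psmb1* the highest (0.03, SE 0.09). *Psmb3* and *Psmb4*, structural subunits of the same ring, had differences of -0.06 and -0.05. The mean was lower in LBW pups in 5 of these 6 genes, by at most 0.06.

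The ATPases of the base thread the substrate into the core, and 5 of the 6 were measured. *Psmc2* was at 14.25, 14.22 and 14.10 in the LBW and at 14.20, 13.96 and 14.12 in the ABW pups, a difference of 0.10 (SE 0.10, adjusted p = 0.736 by limma). The low value of ABW 2 set the groups apart most, and without any single pup the difference lay between 0.03 and 0.15. *Psmc1* was at 12.07, 12.24 and 11.97 compared to 11.96, 12.05 and 12.03, a difference of 0.08 (SE 0.10, adjusted p = 0.794 by limma). *Psmc3*, after whose product *Psmc3ip* is named, was at 14.16, 14.23 and 14.08 compared to 14.22, 14.06 and 14.20, and its group means of 14.15 and 14.16 were nearly equal. *Psmc4* (0.00) and *Psmc5* (0.08) completed the class.

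The remaining subunits of the base hold ubiquitin receptors and scaffolds. *Psmd2*, a large scaffold subunit, was at 12.99, 12.94 and 12.58 in the LBW and at 12.69, 12.82 and 12.77 in the ABW pups (difference 0.08, SE 0.13, adjusted p = 0.853 by limma). LBW 1 and LBW 2 were above all ABW pups and LBW 3 was below them. *Psmd1*, the other large scaffold, had a difference of 0.03 (SE 0.15) and *Psmd4*, a receptor for ubiquitin chains, of 0.07 (SE 0.09). In the lid, *Psmd6* was at 13.47, 13.47 and 13.35 compared to 13.35, 13.33 and 13.43 (difference 0.06, SE 0.09, adjusted p = 0.818 by limma). *Psmd3* differed by -0.01 (SE 0.11) and *Psmd12* by 0.03 (SE 0.10).

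The classes were then set side by side. The median difference was -0.023 in the alpha ring, -0.049 in the beta ring, 0.078 in the ATPases, 0.068 in the other base subunits and 0.025 in the lid. The mean was higher in LBW pups in 3 of the 12 core genes and in 9 of the 11 genes of the regulatory particle. To compare them pup by pup, each gene was expressed relative to its ABW mean and averaged within a class. The regulatory particle minus the core was 0.05, 0.11 and 0.05 in LBW 1, 2 and 3, and -0.01, -0.05 and 0.06 in ABW 1, 2 and 3. ABW 3 thus lay within the LBW values. The ATPases minus the core were at 0.04, 0.11 and 0.08 in the LBW and at 0.03, -0.09 and 0.06 in the ABW pups, and the lid minus the core was at 0.02, 0.08 and 0.05 compared to -0.01, -0.06 and 0.07. Both overlapped between the groups. The beta ring minus the alpha ring (-0.01, 0.05 and -0.11 compared to 0.01, -0.01 and -0.01) overlapped as well. No p was computed for these class averages.

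The 2 measured chaperones of the base, which bind ATPases during assembly, had among the wider intervals. *Psmd9* was at 12.38, 12.44 and 12.01 in the LBW and at 12.08, 12.24 and 11.95 in the ABW pups, with a difference of 0.19 (95% interval -0.16 to 0.54, limma's adjusted p = 0.637). No other member had a larger positive difference. LBW 3 lay within the ABW values, and the other LBW pups above them. Without LBW 3 the difference was 0.32 with an unadjusted p of 0.0362 by limma. *Psmd10*, which encodes the oncoprotein gankyrin, was at 10.05, 10.60 and 10.48 compared to 10.44, 10.58 and 10.56. Its difference of -0.15 (95% interval -0.52 to 0.22, adjusted p = 0.736 by limma) rested on LBW 1, since without that pup it was 0.01.

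The activators open the gate of the core in place of the regulatory particle. All 3 measured ones had a lower mean in LBW pups. *Psme2* was at 12.75, 12.90 and 12.49 in the LBW and at 12.76, 12.91 and 12.89 in the ABW pups (difference -0.14, SE 0.13, adjusted p = 0.701 by limma). *Psme1*, which forms a ring with *Psme2*, was at 12.28, 12.40 and 11.99 compared to 12.30, 12.33 and 12.24 (difference -0.07, SE 0.12). In both, LBW 1 and LBW 2 lay near the ABW pups and LBW 3 below all of them. *Psme3*, the activator found in the nucleus, had a difference of -0.10 (SE 0.11).

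The genes that share only the prefix had the most negative differences of the 30. *Psme3ip1* was at 11.51, 11.15 and 11.18 in the LBW and at 11.43, 11.56 and 11.49 in the ABW pups (difference -0.22, SE 0.12, adjusted p = 0.524 by limma). LBW 1 lay among the ABW pups, and without it the difference was -0.33 with an unadjusted p of 0.0161 by limma. *Psmc3ip*, which acts in meiotic recombination, was at 11.43, 11.57 and 11.18 compared to 11.57, 11.65 and 11.56 (difference -0.20, SE 0.12, adjusted p = 0.536 by limma). Leaving both out, the 28 proteasome genes proper had a median difference of -0.005 and ran from -0.15 to 0.19.

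The averages over the members were spread more widely among the LBW pups than among the ABW pups, a pattern that was noticed after the values were seen. Relative to the ABW means, the mean of the 30 genes was 0.03 for LBW 1, 0.08 for LBW 2 and -0.15 for LBW 3. The ABW pups lay between -0.01 and 0.02. LBW 3 was the lowest of the 6 pups in 20 of the 30 members and the highest in 0. Over all features LBW 3 was the lowest in 23.2%, and in the range of the members' signal in 27.0%. This held for all 6 beta subunits, all 3 other base subunits and all 3 activators, for 4 of 6 alpha subunits, 2 of 5 ATPases, 1 of 3 lid subunits and 0 of 2 chaperones. LBW 2 was the highest pup in 13 members and LBW 1 in 8, compared to 16.2% of all features for either pup. Without LBW 3 the mean was higher in LBW pups in 21 of the 30 members (46.7% of all features), with a median difference of 0.068, and without LBW 2 it was higher in 10 (42.9% of all features).

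The size of the LBW 3 pattern depended on the scaling of the arrays. LBW 3 was the lowest pup in 16 members after quantile normalization and in 25 after centring each array on its median, compared to 21.9% and 29.3% of all features. Its average stayed below those of the other pups, at -0.14 and -0.20. The same pup had the highest average of the bone markers (3.93 above the ABW mean) and the lowest of the adipocyte markers (8 of 9 sought, -1.17), while the skeletal muscle markers of LBW 3 averaged 0.09 above the ABW mean. LBW 3 also had the lowest averages of the markers of erythroid precursors (6 of 10, -0.62) and of proliferating cells (6 of 10, -0.36) and of the 3 immunoproteasome subunits (-0.62). In the erythroid markers LBW 1 averaged -0.39, LBW 2 0.33 and ABW 1 0.29. The average of LBW 2 rested largely on the dim *Rhag*, at 7.85 in LBW 2 against an ABW mean of 6.23. *Alas2* and *Epor* were also highest in LBW 2, whereas *Slc4a1* and *Gata1* were highest in ABW 1 and *Hbb* was lowest in LBW 2. LBW 1 had bone markers 2.96 above the ABW mean and its proteasome genes averaged 0.03. The part of these cells and tissues in the low values of LBW 3 was not tested.

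**Figure D2:**
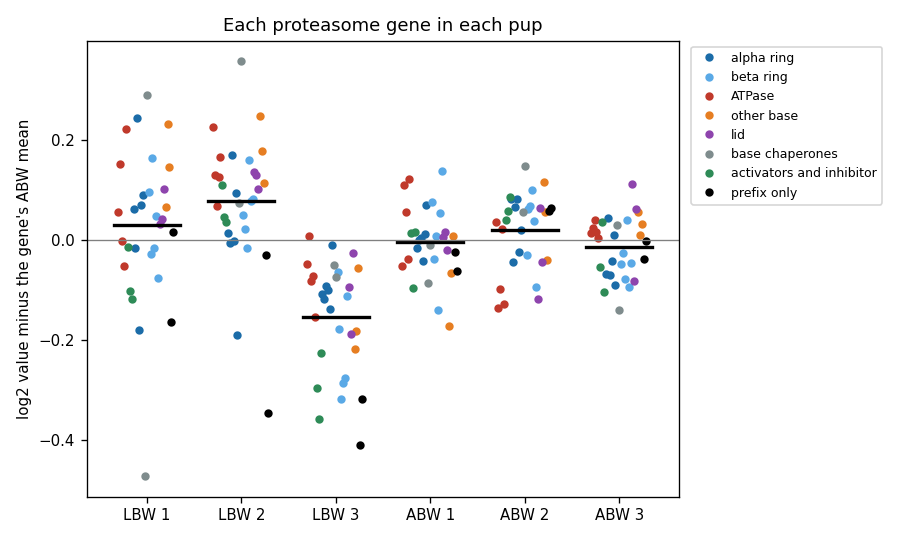
Log2 value of each of the 30 members minus the gene's ABW mean in each pup (points, coloured by class), with the mean over members as a bar. The points of LBW 3 lie mostly below 0, with a mean of -0.15, whereas LBW 1 and LBW 2 average 0.03 and 0.08 and spread on both sides.

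The immunoproteasome subunits, which the rule leaves out, were compared with the constitutive subunits whose places they take. *Psmb9* was at 9.74, 9.86 and 9.70 in the LBW and at 9.93, 10.08 and 10.05 in the ABW pups, so that the highest LBW value lay below the lowest ABW value. The difference was -0.25 (SE 0.09), with an unadjusted p of 0.0284 and an adjusted p of 0.351 by limma. *Psmb8* (-0.47, SE 0.25) and *Psmb10* (-0.26, SE 0.23) also had lower means in LBW pups, and both overlapped between the groups. *Psmb8* takes the place of *Psmb5*, which had no matched row. *Psmb9* minus its counterpart *Psmb6* was -3.73, -3.64 and -3.45 in the LBW and -3.54, -3.38 and -3.28 in the ABW pups. The groups differed by -0.20 (exact permutation test, 2-sided p = 0.2; 0.4 adjusted over the 2 pairs). *Psmb10* minus *Psmb7* differed by -0.23 (exact permutation test, 2-sided p = 0.5; 0.5 adjusted). In both pairs the LBW and ABW values overlapped, and a difference between the kinds of subunit was not shown. A test of 3 pups against 3 cannot go below 0.1. Of 9 interferon response genes with a row, all 9 had a lower mean in LBW pups, and 3 of them an unadjusted p under 0.05. Over all features, 44.4% had a higher mean in LBW pups and 12.4% had an unadjusted p under 0.05. The differences of the 9 genes ran from -1.07 (*Rsad2*) to -0.01 (*Usp18*). Those with an unadjusted p under 0.05, *Mx2*, *Oas1a* and *Rsad2*, had values between 5.67 and 7.70, below the median of every array.

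**Figure D3:**
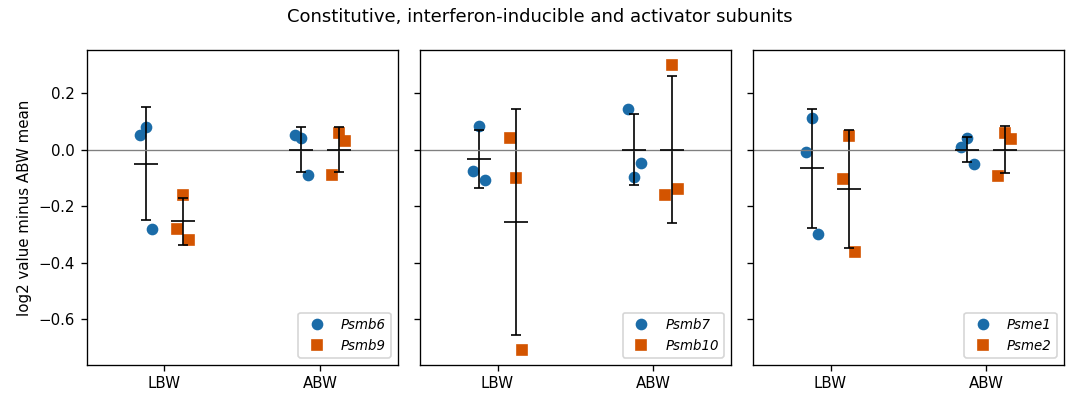
Log2 value minus the gene's ABW mean for each pup (points), with the mean and SD of each group (black), for *Psmb6* and *Psmb9*, *Psmb7* and *Psmb10*, and *Psme1* and *Psme2*. *Psmb9* is the only one of the 6 genes whose LBW and ABW points do not overlap.

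The genes around the proteasome were read from lists that, with the immunoproteasome subunits, held 52 genes, of which 31 had a row. Those that carry or load ubiquitin had no member at an unadjusted p under 0.05 (0 of 5). *Ubb*, a polyubiquitin gene, was at 14.92, 14.86 and 14.93 in the LBW and at 14.97, 15.00 and 15.12 in the ABW pups (difference -0.13, SE 0.08, adjusted p = 0.595 by limma). The LBW values were all lower than the ABW values, by a margin smaller than the spread within either group. Of the proteins that dock on the proteasome, 0 of 3 had an unadjusted p under 0.05, with differences of 0.11 for the ubiquitin receptor *Adrm1* (SE 0.19), -0.04 for the thioredoxin-like *Txnl1* and 0.01 for the deubiquitinase *Usp14*. None of the 6 chaperones sought for the assembly of the core had a matched row.

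Among 7 genes that deliver or extract substrates, 1 had an unadjusted p under 0.05, a share near the 12.4% of all features. This was *Nploc4*, a cofactor of the extraction ATPase p97, with 11.39, 11.42 and 11.25 in the LBW and 11.21, 11.09 and 10.99 in the ABW pups. The LBW values all lay above the ABW values, where 17.4% of all features do not overlap in one direction or the other, and the difference was 0.26 (SE 0.10, unadjusted p = 0.0369, adjusted p = 0.375 by limma). The shuttle gene *Ubqln1* (-0.13, SE 0.09) overlapped between the groups, as did *Vcp*, which encodes p97 (0.08, SE 0.09). Of 7 ubiquitin ligases studied in muscle, 1 had an unadjusted p under 0.05, again near the 12.4% of all features. *Trim55* was at 11.80, 11.77 and 12.02 compared to 11.65, 11.56 and 11.41 (difference 0.32, SE 0.11, unadjusted p = 0.0247, adjusted p = 0.340 by limma). *Trim63* and *Trim54*, which like *Trim55* encode ligases of the sarcomere, had differences of 0.59 (SE 0.26) and 0.37 (SE 0.16), and LBW 3 in *Trim63* and LBW 1 in *Trim54* overlapped the ABW pups. The atrophy ligase *Fbxo32* differed by -0.10 (SE 0.19) and *Trim32* by -0.29 (SE 0.15). Of the 7 ligases, 3 had a higher and 4 a lower mean in LBW pups, with a median difference of -0.029.

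**Figure D4:**
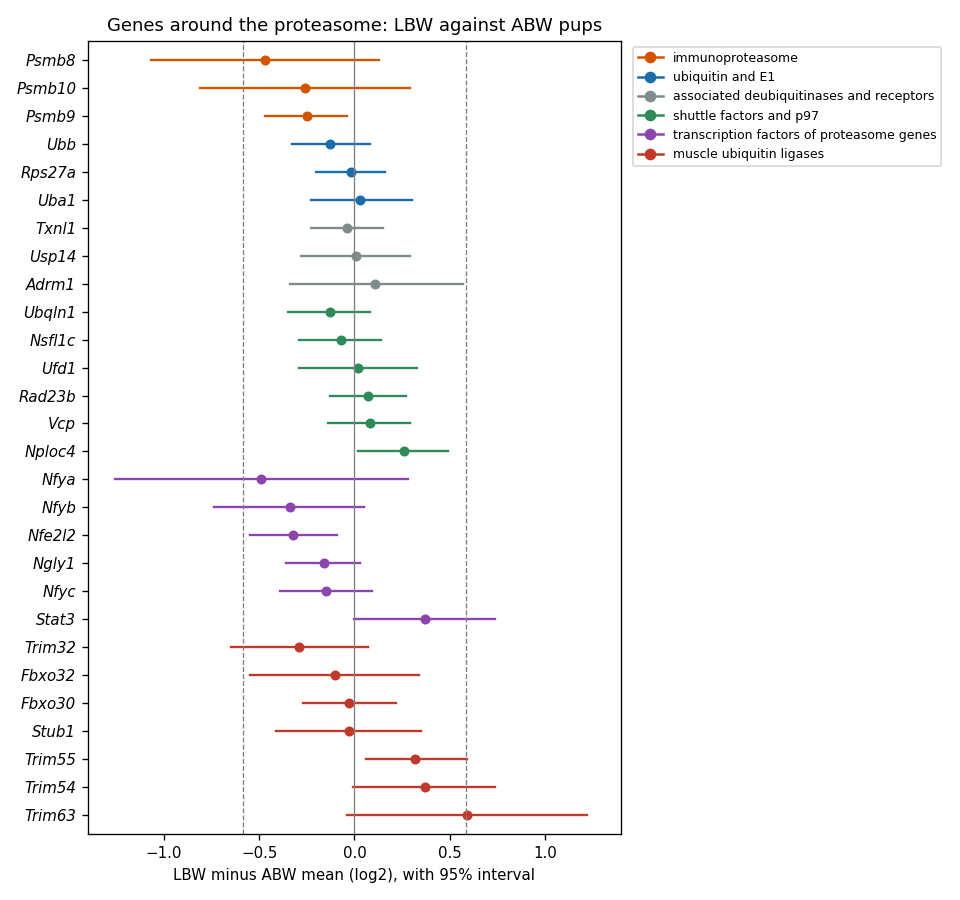
Difference between the LBW and ABW means on the log2 scale, with the 95% interval from limma, for 28 genes of these lists (points and lines, coloured by list). The solid line marks 0 and the dashed lines a fold change of 1.5. The intervals of *Psmb9*, *Nploc4*, *Nfe2l2* and *Trim55* do not cross the solid line.

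The 6 measured transcription factors and regulators of proteasome genes had a median absolute difference of 0.333, compared to 0.0608 over the members and 0.128 over all features. By limma, 1 of the 6 had an unadjusted p under 0.05, compared to 12.4% of all features. *Nfya* (-0.49, SE 0.32), *Stat3* (0.37, SE 0.16) and *Nfyb* (-0.34, SE 0.16) had the largest differences. None of *Nfya*, *Stat3* and *Nfyb* had an unadjusted p under 0.05. The LBW values of *Nfya* were spread widely, with an SD of 0.68. Those of *Stat3* all lay above the ABW values, where 17.4% of all features do not overlap in one direction or the other. Those of *Ngly1* all lay below the ABW values (difference -0.16, SE 0.08, unadjusted p = 0.087 by limma). *Nfe2l2*, singled out after its values were seen, was at 11.38, 11.36 and 11.52 in the LBW and at 11.63, 11.83 and 11.76 in the ABW pups. The LBW values all lay below the ABW values, and the difference was -0.32 (SE 0.10, unadjusted p = 0.0130, adjusted p = 0.305 by limma). It encodes NRF2. *Nfe2l1*, which encodes NRF1, had no matched row.

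Among the promoters printed above, that of *Psmd9* holds 2 matches, 1 on each strand, and in that of *Psmb2* the match shares a base with a CCAAT box. The differences of the 4 genes with the element core were -0.06 for *Psmb2*, 0.03 for *Psmd1*, -0.05 for *Psmb6* and 0.19 for *Psmd9*, with the LBW and ABW values overlapping in each. Their median was -0.01, and the 23 members with a promoter but without the element core had the same median, with a range from -0.22 to 0.11. The 16 members with CCAAT letters had a median of -0.04 and the 11 without them of 0.00. A match of letters is a description and does not show that a factor binds there.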

How the data were processed

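RNA from the muscle of each pup (3 LBW, 3 ABW) was hybridized to a single-colour NimbleGen array. The values deposited by the authors are log2 signals that had been normalized in R with Bioconductor packages, and the submitters' processing notes name RMA. No raw signals were used here. Rows were named by RefSeq accession (assembly GRCr8), which gave a symbol to 9747 of the 26419 rows (36.9%). Rows of a symbol were averaged, which left 26299 features. All features were fitted by lmFit and eBayes of limma 3.58.1 under R 4.3.3 (2-sided, Benjamini-Hochberg over all features), and 95% intervals were taken from the same fit. The fit was tested on simulated data. Single values were tested by an exact permutation test over the 6 pups. p-values set a difference against the spread between these pups only, which limma moderates over all features. Arrays carry no count depth, so that the number of pups limits the precision. The gene lists, the members and the rule for naming genes were chosen with earlier results of these data known. Named members were the catalytic beta subunits, any with an unadjusted p under 0.05, the 4 largest differences either way and the extremes of each class. From each list around the proteasome at most 3 genes were named, with *Fbxo32*, *Trim32*, *Vcp*, *Nfe2l2* and *Ngly1* added after their values were seen. Further members were added to complete the classes, also after their values were seen. Some genes that the rule covers are in the counts but are otherwise left out. As alternatives, single pups were left out, the replicate number entered as a block, arrays were quantile normalized or centred on their median, and the dimmest 25% of features were dropped. The variance was also fitted with a trend on intensity, robustly or with array weights, the methods' test (Student) was run, and the first row of a symbol replaced the average.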

Additional observations from a re-analysis of the deposited data

How the results depend on the processing

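No member passed the threshold of the methods or the adjusted threshold under any of the 15 alternatives run. At an unadjusted p under 0.05, 0 members were called under the 9 alternatives that keep all pups, and between 0 and 1 with a pup left out: *Psme3ip1* without LBW 1 and *Psmd9* without LBW 3. The number of members with a higher mean in LBW, 13 with all pups, was between 11 and 16 under the 9 alternatives and between 10 and 21 with a pup left out. Of these 9, only the quantile normalization, the median centring and the array weights can change a member's difference. The other settings leave each difference as it was. The median difference over the members moved between -0.021 and 0.011, and between -0.064 and 0.068 with a pup left out. That of the beta ring, -0.049 with all pups, ran from -0.098 to 0.068 with a pup left out, and was 0.068 without LBW 3. The order of the alpha ring, beta ring and lid by their medians rests on differences smaller than these ranges. Of the 30 members, 14 kept a single sign with all pups and without each pup in turn.

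After each group's mean was taken off, the LBW and ABW pups of the same number correlated at 0.0874, 0.104 and 0.0552. Pups of unlike number correlated between -0.096 and 0.0211, lower than each of these. What the numbers stand for is not given in the sources used here, and an effect shared by pups of a number was not tested. The main fit did not take the numbers as a pairing, and the block was run as an alternative. With the replicate block, 0 members were called at an unadjusted p under 0.05. Each number occurs once in each group, so the block cannot change a difference between the group means. The 13 members with a higher mean in LBW and the median difference of -0.007 therefore stayed the same by design. Over all features 3516 were called at that p with the block and 3250 without it. By limma 0 features passed after adjustment with all pups and under these alternatives, except that 125 did without LBW 2, none of them a member. How far the signals lie above background is unknown here, and no raw intensities were used.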
